A study of Mus musculus with 14 samples.

Results

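Growth factor and cytokine receptors decide which signals a blood progenitor can receive. The 9 receptor genes described here, Kit, Flt3, Csf3r, Epor, Il6ra, Il6st, Il7r, Ifngr1 and Lifr, were taken by symbol from the 55367 gene symbols of 2 RNA sequencing tables of mouse bone marrow cells. The rule uses their names and no measured value. All cells were lineage-negative (Lin-) primary cells, that is, marrow from which cells bearing mature blood markers had been removed. The labels give the genotype of the animals as wild-type and the growth medium as IMDM with serum and the cytokines SCF, IL3 and IL6. Cells of the first experiment carried a lentivirus made from the pSMAL plasmid with either luciferase, the control (3 libraries), or SETBP1-D868N, a mutant form of the nuclear protein SETBP1 (3 libraries). In the second experiment, every culture carried SETBP1-D868N, the controls included, and was treated for 4 days with the solvent DMSO (4 libraries) or with 2.5 µM PF-9363, an inhibitor of MYST-family histone acetyltransferases (4 libraries). There was no DMSO or PF-9363 culture without SETBP1-D868N, so an effect of the compound that depends on the mutant cannot be told apart from one that does not. The labels used here do not say whether replicates were separate cultures or animals, so p-values measure the spread between these libraries, which may be technical.

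The 9 genes fall into 3 structural families. Kit and Flt3 are receptor tyrosine kinases, which bind stem cell factor (SCF) and FLT3 ligand and are hallmarks of early progenitors; Kit also stays high in mast cells. Csf3r, Epor, Il6ra, Il6st, Il7r and Lifr are class I cytokine receptors, which have no kinase of their own and signal through JAK kinases and STAT transcription factors. Csf3r binds G-CSF and drives neutrophil production, Epor binds erythropoietin and is needed for red cell production, and Il7r is the alpha chain for IL7 in lymphoid cells. Il6ra binds IL6 and recruits the shared signalling chain Il6st (gp130), which also pairs with Lifr to receive LIF. Ifngr1 is a class II receptor, the ligand-binding chain for interferon gamma, and pairs with Ifngr2.

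Gene positions below are those of GENCODE M21 on GRCm38, the build that the submitters' processing notes name. Values are CPM, counts scaled to the library total and by TMM factors, unless another scale is named. Total counts per library were 60147266 to 68730322 in the first experiment and 7083731 to 10359093. A count of 3, the limit that a count of 0 allows, was worth 0.0436 to 0.0499 CPM in the first and 0.290 to 0.424 CPM in the second, and such limits cover counting error only. The mouse Setbp1 row held 5, 6 and 6 counts with luciferase, 23, 20 and 24 with SETBP1-D868N, 2, 1, 0 and 0 with DMSO and 0 in each PF-9363 library. It does not measure the level of the transgene and so does not check those labels. Of the lists of cell type markers, the neutrophil genes were the most abundant (25162 to 26208 CPM summed with luciferase), and progenitor genes were also present (815 to 834 CPM).

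The sequences just upstream of 6 of these genes are shown because 4 of them (Kit, Csf3r, Il6ra and Il6st) were lower with SETBP1-D868N and higher with PF-9363, while Flt3 and Ifngr1 were lower in both comparisons. Each run is taken from RefSeq (GRCm38.p6), 5′ to 3′ on the gene's own strand, and stops at the base before the gene's annotated start in GENCODE M21. Of the 2 RefSeq starts of Kit, the first is used. Capitals mark matches to 6 short motifs searched on both strands, with N for any base. The letters AGGAAG are the core that ETS factors bind. Those for RUNX factors are TGTGGT and those searched for GATA factors AGATAA. For the CEBP family the letters were TTNNGCAA. The SP motif was searched as GGGCGG, and the cyclic AMP response element (CRE) was searched as TGACGT.
Kit, chr5:75574737-75574915, plus strand: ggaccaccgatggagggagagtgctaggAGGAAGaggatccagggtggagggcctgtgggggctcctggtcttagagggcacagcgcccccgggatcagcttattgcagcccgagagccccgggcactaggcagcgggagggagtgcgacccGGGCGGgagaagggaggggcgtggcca
Csf3r, chr4:126024409-126024549, plus strand: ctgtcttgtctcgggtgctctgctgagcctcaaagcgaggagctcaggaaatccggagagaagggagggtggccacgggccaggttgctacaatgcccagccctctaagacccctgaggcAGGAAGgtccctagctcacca
Il6ra, chr3:89913197-89913446, minus strand: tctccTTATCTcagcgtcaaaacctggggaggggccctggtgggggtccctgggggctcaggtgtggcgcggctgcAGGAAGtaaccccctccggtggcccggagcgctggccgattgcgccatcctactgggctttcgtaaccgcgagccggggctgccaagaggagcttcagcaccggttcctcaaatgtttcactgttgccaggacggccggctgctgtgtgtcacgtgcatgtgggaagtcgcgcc
Il6st, chr13:112463820-112464069, plus strand: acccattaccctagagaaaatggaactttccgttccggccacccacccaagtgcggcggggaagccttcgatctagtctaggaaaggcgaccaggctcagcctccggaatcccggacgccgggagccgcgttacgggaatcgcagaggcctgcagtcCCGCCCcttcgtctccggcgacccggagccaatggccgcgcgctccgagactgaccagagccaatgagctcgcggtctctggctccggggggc
Flt3, chr5:147400490-147400739, minus strand: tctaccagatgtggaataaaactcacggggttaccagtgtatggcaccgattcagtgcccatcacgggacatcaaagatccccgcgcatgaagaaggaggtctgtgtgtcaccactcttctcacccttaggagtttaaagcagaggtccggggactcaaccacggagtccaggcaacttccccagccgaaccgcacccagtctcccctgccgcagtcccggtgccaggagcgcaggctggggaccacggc
Ifngr1, chr10:19591699-19591948, plus strand: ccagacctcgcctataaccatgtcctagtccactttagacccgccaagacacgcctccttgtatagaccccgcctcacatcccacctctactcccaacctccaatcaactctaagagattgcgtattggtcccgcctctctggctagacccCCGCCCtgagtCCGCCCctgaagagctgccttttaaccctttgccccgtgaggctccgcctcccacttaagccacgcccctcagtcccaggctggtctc
In windows of 250 bases before the RefSeq start, AGGAAG was found in Kit, Csf3r (4 matches, 1 of them in the stretch shown), Il6ra and Il7r. It was not found in those of Flt3, Epor, Il6st, Ifngr1 and Lifr. Of all 32851 RefSeq promoters, 29.5% held the ETS letters, 14.05% those of RUNX, 9.99% of GATA, 9.56% of CEBP, 32.7% of SP and 6.47% of CRE. The stretch of Flt3 held none of the 6 motifs. The shown stretches of Il6st and Ifngr1 held only GGGCGG, on the opposite strand, and none of the motif matches overlapped another. The windows of Il7r and Lifr lie inside the annotated genes and are not shown. These matches are descriptions of letters and were not tested for binding.

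The receptors differed widely in their level. On the scale of CPM per kb of exon, which allows genes of different length to be compared, Ifngr1 was highest with luciferase at 95.4 ± 2.49 (SD, n = 3). It was followed by Csf3r at 48.3 ± 2.83 and Kit at 20.3 ± 0.315. Il6ra (9.71), Il6st (6.86) and Il7r (5.63) formed a middle group in CPM per kb, and Flt3 (2.18), Epor (1.53) and Lifr (0.789) were lowest. No pair of neighbours in this order overlapped between the luciferase libraries. With SETBP1-D868N the order was the same except that Epor (2.39 CPM per kb) stood above Flt3 (1.78), and again no neighbours overlapped. In the second experiment the DMSO order was led by Ifngr1 (183 CPM per kb), far above Csf3r (22.6) and Kit (7.83). Il6ra followed at 3.54 CPM per kb, Il6st stood at 2.54 and Il7r at 2.49, and the libraries of Il6st and Il7r overlapped. Flt3 (0.431 CPM per kb) overlapped Epor (0.227), and Epor overlapped Lifr (0.173). With PF-9363, Csf3r (90.4 ± 7.57 CPM per kb, SD, n = 4) and Ifngr1 (86.2 ± 2.66) headed the order with overlapping libraries. Kit (21.4 CPM per kb) overlapped Il7r (17.8), which now stood above Il6ra (14.1) and Il6st (9.06). Lifr (0.208 CPM per kb), Epor (0.207) and Flt3 (0.114) were lowest, Lifr overlapping Epor and Epor overlapping Flt3.

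**Figure D1:**
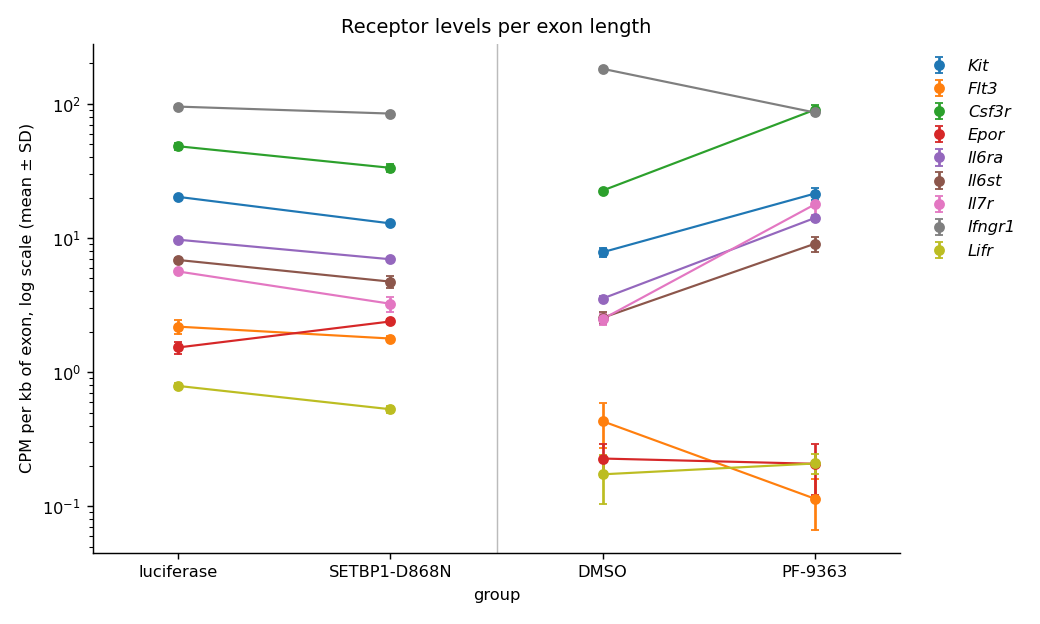
Level of each receptor in CPM per kb of exon on a log axis, by group; points are group means with bars of 1 SD over libraries (n = 3 in the first experiment, 4 in the second). Ifngr1 led the luciferase, SETBP1-D868N and DMSO groups, while with PF-9363 Csf3r and Ifngr1 overlapped and Flt3, Epor and Lifr were lowest.

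SETBP1-D868N was first compared with luciferase, which asks how receptor expression differs in cells given the mutant. No library came from cells given unmutated SETBP1, so an effect of the mutation cannot be told apart from one of added SETBP1. All 9 receptors passed the filter on low counts. With SETBP1-D868N, 8 of them were lower and 1, Epor, was higher (edgeR's quasi-likelihood test, adjusted p under 0.05). Over all 15794 genes tested, 47.2% were called, 22.7% lower and 24.5% higher. In each of the 9 receptors the luciferase and SETBP1-D868N libraries did not overlap, as in 56.7% of all genes. The median log2 fold change was -0.53 over the receptors and 0.0043 over all genes, and the median of its size was 0.54 and 0.19. Il7r, Kit and Epor had the largest changes, and Ifngr1 the smallest.

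Kit, the SCF receptor (chr5:75574916-75656722, plus strand), stood at 177, 181 and 183 CPM with luciferase and at 118, 112 and 114 CPM with SETBP1-D868N. Every SETBP1-D868N library was below every luciferase library, and the log2 fold change was -0.66 (SE 0.029, adjusted p = 1.87e-08) by edgeR. Flt3, the kinase receptor of early multipotent progenitors (chr5:147330741-147400489, minus strand), stood at 15.1, 12.2 and 13.1 CPM with luciferase and at 10.8, 10.6 and 11.5 CPM with SETBP1-D868N. Its change was small, -0.29 (SE 0.077, adjusted p = 0.00775) by edgeR on the log2 scale, and luciferase 1 was the highest library. In bulk samples such as these, fewer cells of a type and less RNA per cell cannot be told apart. Markers of mast cells, which keep Kit, summed to between 4005 and 4275 CPM with luciferase and between 3045 and 3157 CPM with SETBP1-D868N, with 8 of 10 genes called lower and 2 higher. Those of progenitors summed to between 815 and 834 CPM with luciferase and between 1023 and 1076 CPM with SETBP1-D868N, with 7 of 10 genes higher and 3 lower. Gata2 made up most of this sum, at 500 CPM with luciferase and 580 CPM with SETBP1-D868N (log2 fold change 0.21). The 3 lower were Ly6a (-1.11), Slamf1 (-0.89) and Procr (-0.41). The part of mast cells and progenitors in the result was not tested.

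Csf3r, the G-CSF receptor (chr4:126024550-126044440, plus strand), stood at 163, 183 and 177 CPM with luciferase and at 125, 125 and 110.2 CPM with SETBP1-D868N. It was lower in each SETBP1-D868N library, with a log2 change of -0.53 (SE 0.065, adjusted p = 5.39e-04) by edgeR. Epor, the erythropoietin receptor (chr9:21958897-21963506, minus strand), moved the other way, from 2.71, 3.10 and 3.30 CPM to 4.53, 5.0 and 4.72 CPM. Its log2 fold change was 0.65 (SE 0.10, adjusted p = 2.50e-04) by edgeR. Il7r, the alpha chain of the IL7 receptor (chr15:9505788-9530176, minus strand), fell from 26.1, 26.8 and 25.8 CPM to 14.3, 17.2 and 13.7 CPM, with a log2 change of -0.80 (SE 0.076, adjusted p = 1.94e-05) by edgeR. This was the largest fall among the receptors, at a level of about 15.1 CPM on average with SETBP1-D868N. Neutrophil markers, beside Csf3r, summed to between 25162 and 26208 CPM with luciferase and between 17255 and 19808 CPM with SETBP1-D868N, with 6 of 10 genes lower and 4 higher. The 4 higher were Elane (0.34), Mpo (0.40), Prtn3 (0.29) and Ctsg (0.60) on the log2 scale. Ltf, Camp, Ngp, S100a8, S100a9 and Mmp8 were lower (-0.61 to -0.86). The most abundant were S100a9 (7257 CPM with luciferase and 4357 CPM with SETBP1-D868N) and Ngp (6227 and 3735 CPM). Erythroid markers, beside Epor, summed to between 612 and 637 CPM with luciferase and between 684 and 714 CPM with SETBP1-D868N. Of 7 erythroid genes tested, 2 were called higher and none lower; Klf1, an erythroid transcription factor, had a log2 fold change of 0.97, and Gata1 one of 0.045, which did not pass the test. B lineage markers, beside Il7r, summed to between 6.73 and 7.59 CPM with luciferase and between 6.51 and 7.28 CPM with SETBP1-D868N. Of 5 tested, Dntt (-1.62, 3.07-fold lower) and Pax5 (-1.47, 2.76-fold lower) were called lower on the log2 scale. Igll1 was called higher, by 2.83-fold. Pax5 held 10 to 18 counts with luciferase and 3 to 8 with SETBP1-D868N, Dntt 99 to 131 and 26 to 50, and Igll1 14 to 20 and 47 to 49. Cd79b, the most abundant, did not pass (4.48 CPM with luciferase and 4.88 CPM with SETBP1-D868N). The median log2 fold change of the 5 was 0.125. The part of these cells in the receptor results was not tested.

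The IL6 receptor chains fell together. Il6ra, the IL6-binding chain (chr3:89864059-89913196, minus strand), stood at 85.5, 83.9 and 82.4 CPM with luciferase and 58.3, 60.5 and 61.3 CPM with SETBP1-D868N, with a log2 change of -0.48 (SE 0.031, adjusted p = 2.50e-07) by edgeR. Il6st, the signalling chain (chr13:112464070-112510086, plus strand), stood at 79.3, 74.7 and 74.2 CPM and 47.1, 53.2 and 57.2 CPM, with a log2 change of -0.54 (SE 0.070, adjusted p = 6.58e-04) by edgeR. Their within-library log2 count ratio (Il6ra over Il6st) was 0.142 ± 0.0305 with luciferase and 0.197 ± 0.105 with SETBP1-D868N (SD, n = 3). The difference of 0.0557 was within the spread of the libraries (two-sided exact permutation test, p = 0.5, the smallest p this design allows being 0.1). Lifr, which pairs with Il6st to bind LIF (chr15:7090614-7197489, plus strand), stood at 8.25, 9.0 and 8.26 CPM and 5.30, 5.89 and 5.91 CPM, with a log2 change of -0.58 (SE 0.076, adjusted p = 5.68e-05) by edgeR. Ifngr1, the most abundant receptor (chr10:19591949-19610229, plus strand), stood at 267, 279.8 and 268 CPM and 242, 246 and 234 CPM. The libraries did not overlap, but its fall was the smallest of the receptors called, -0.17 (SE 0.029, adjusted p = 3.86e-04) by edgeR on the log2 scale. Macrophage markers summed to between 1652 and 1669 CPM with luciferase and between 1262 and 1313 CPM with SETBP1-D868N, with 9 of 10 genes lower and none higher. Dendritic markers summed to between 219.6 and 247 CPM with luciferase and between 131 and 143 CPM with SETBP1-D868N, with 7 of 9 tested genes lower and none higher. Their part in the results for these chains was not tested.

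**Figure D2:**
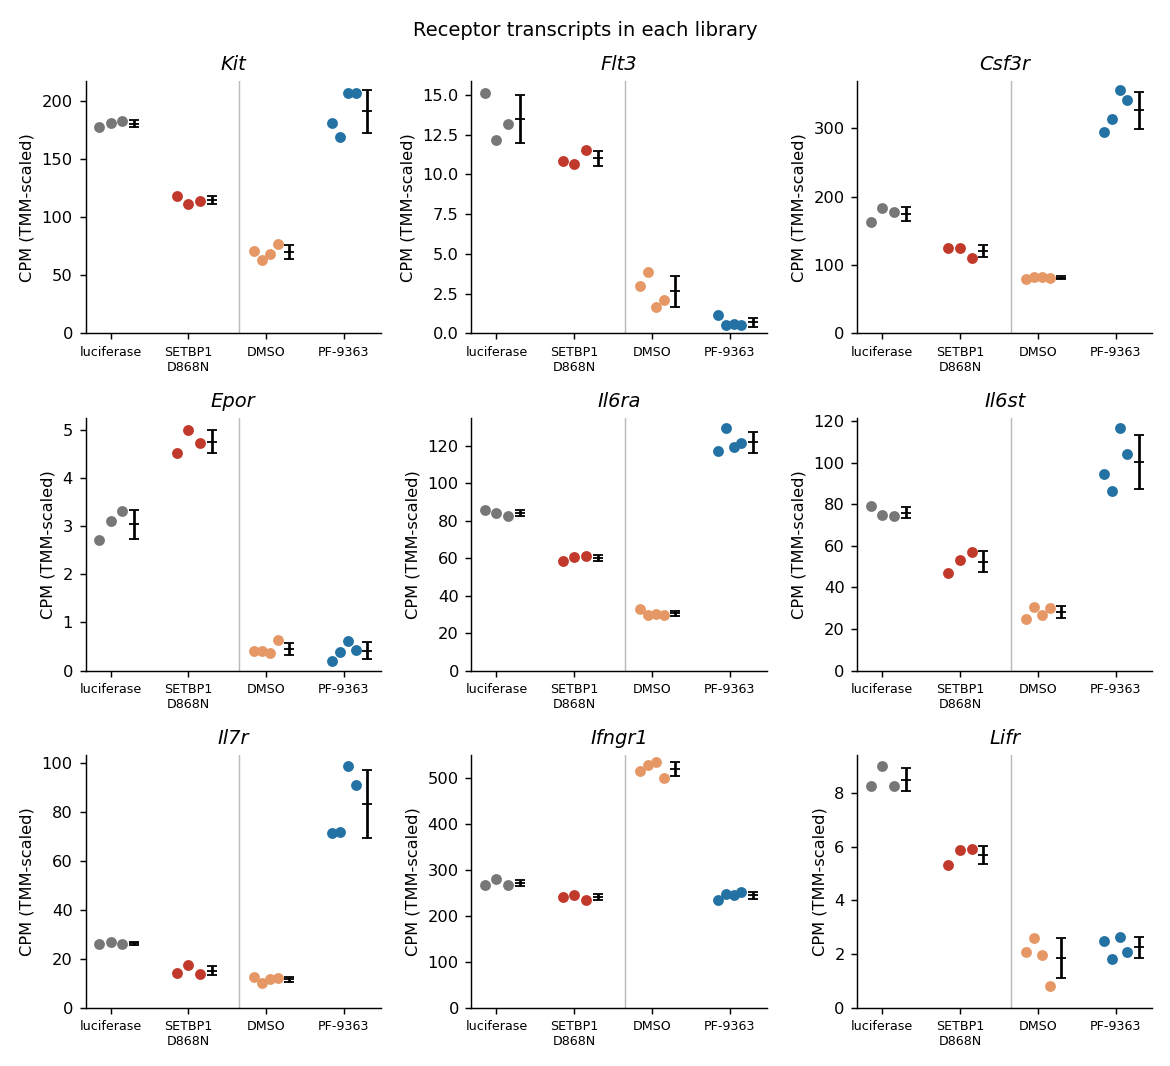
TMM-scaled CPM of each receptor in every library, in panels by gene with axes from 0; coloured points are libraries, and the black marks are group means with bars of 1 SD. In the first experiment 8 receptors were lower with SETBP1-D868N and Epor was higher; in the second, Kit, Csf3r, Il6ra, Il6st and Il7r were higher with PF-9363 while Flt3 and Ifngr1 were lower.

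PF-9363 was then compared with DMSO, in cells that all carried SETBP1-D868N, which asks how inhibition of MYST acetyltransferases changes the same receptors. Of the 8 receptors that passed the filter on low counts, 5 were higher with PF-9363 (Kit, Csf3r, Il6ra, Il6st and Il7r), 2 were lower (Flt3 and Ifngr1) and Lifr did not pass the test. Epor failed the filter. Over all 13456 genes tested, 76% were called, 36.6% higher and 39.4% lower, so the 7 called of 8 are close to the share over all genes. With library totals alone as the scale, 3775 genes were called higher and 6653 lower, against 4921 and 5307 with TMM, and the median of all genes shifted by -0.23 on the log2 scale. The receptor calls were the same on both scales. The libraries did not overlap in 7 of the 8 receptors, as in 70.3% of all genes. The median size of the log2 change was 1.84 over the receptors and 0.65 over all genes, and the medians with sign were 1.64 and -0.038.

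Il7r had the largest change. It stood at 12.5, 10.1, 11.8 and 12.1 CPM in the DMSO libraries and at 71.1, 71.7, 98.5 and 90.7 CPM in those with PF-9363, which was 7.12-fold higher, with a log2 change of 2.83 (SE 0.11, adjusted p = 1.95e-17) by edgeR. Markers of the B lineage, where Il7r acts in development, were lower: they summed to between 12.5 and 16.2 CPM with DMSO and between 1.71 and 3.61 CPM with PF-9363, and Ebf1 and Ms4a1 were at 0 in every library of both groups. Both B lineage genes tested were lower. T and NK markers summed to between 36.5 and 49.4 CPM with DMSO and between 4.25 and 6.23 CPM with PF-9363, with Cd3e, Cd3g, Trbc1 and Klrb1c at 0 in both groups. Of the 2 tested, Nkg7 was lower (41.6 to 1.70 CPM, log2 fold change -4.61) and Gata3 higher (0 to 2 counts with DMSO and 10 to 26 counts with PF-9363), so the sum follows Nkg7. Csf3r stood at 79.5, 83.0, 83.1 and 80.4 CPM and at 294, 314, 355 and 341 CPM, 4.00-fold higher, with a log2 change of 2.00 (SE 0.067, adjusted p = 6.93e-21) by edgeR. Neutrophil markers summed to between 19122 and 22398 CPM with DMSO and between 16809 and 18271 CPM with PF-9363, where 2 of 10 genes were higher and 5 lower. Single neutrophil genes moved far more than the sum, with log2 fold changes from -9.66 to 1.86 and a median of -0.85. The part of these cells in the Csf3r result was not tested.

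Kit stood at 70.6, 63.0, 68.5 and 77.2 CPM with DMSO and at 181, 169, 207 and 207 CPM with PF-9363. It was 2.73-fold higher, with a log2 change of 1.45 (SE 0.075, adjusted p = 3.31e-16) by edgeR. Mast cell markers summed to between 821 and 1049 CPM with DMSO and between 4639.6 and 5723 CPM with PF-9363, with all 9 tested genes higher. Progenitor markers summed to between 169.7 and 191 CPM with DMSO and between 459 and 528 CPM with PF-9363, with 7 of 10 genes higher and none lower. The part of these cells in the Kit result was not tested. Flt3, the other kinase receptor, went the opposite way. It held 30, 39, 18 and 23 counts with DMSO, or 2.97, 3.89, 1.69 and 2.09 CPM, and 11, 4, 4 and 5 counts with PF-9363, or 1.13, 0.516, 0.623 and 0.542 CPM. All PF-9363 libraries were below all DMSO libraries, and Flt3 was 3.62-fold lower, with a log2 change of -1.86 (SE 0.39, adjusted p = 1.15e-04) by edgeR. At these counts its size is known less well than that of Kit, with a 95% interval from -2.66 to -1.05.

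Both IL6 receptor chains rose. Il6ra stood at 32.7, 29.6, 30.3 and 29.6 CPM with DMSO and at 117, 129.7, 119 and 121 CPM with PF-9363, 3.98-fold higher, with a log2 change of 1.99 (SE 0.073, adjusted p = 7.16e-20) by edgeR. An annotated antisense gene, Gm42809, shares 242 bases of exon with Il6ra and held 8 to 19 counts with DMSO and 46 to 70 with PF-9363. In the deeper first experiment Gm42809 held 0, 1 and 0 counts with luciferase and 2, 3 and 4 with SETBP1-D868N. How the counting treated strand is not given in the sources used here. Il6st stood at 24.99, 30.8, 26.9 and 30.2 CPM and at 94.7, 86.5, 117 and 104 CPM, 3.55-fold higher, with a log2 change of 1.83 (SE 0.092, adjusted p = 4.47e-16) by edgeR. The log2 count ratio of Il6ra to Il6st was 0.119 ± 0.208 with DMSO and 0.285 ± 0.232 with PF-9363 (SD, n = 4). The difference of 0.166 was within the spread of the libraries (two-sided exact permutation test, p = 0.314, the smallest p allowed being 0.0286). Lifr held 21, 26, 21 and 9 counts with DMSO and 24, 14, 17 and 19 with PF-9363, or 2.08, 2.59, 1.97 and 0.817 CPM and 2.47, 1.805, 2.65 and 2.06 CPM. These libraries overlapped, and the log2 fold change of 0.27 (SE 0.34, adjusted p = 0.468) by edgeR had a 95% interval from -0.42 to 0.96. Macrophage markers summed to between 2384 and 2557 CPM with DMSO and between 3623 and 4132 CPM with PF-9363, with 8 of 10 genes higher and 2 lower. Log2 fold changes in this list, which holds monocyte genes as well, ran from -2.53 to 3.47 with a median of 2.67. Dendritic markers summed to between 33.2 and 42.0 CPM with DMSO and between 170.2 and 209 CPM with PF-9363, with all 5 tested genes higher. The part of these cells was not tested.

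Ifngr1 was the abundant receptor that fell. It stood at 516, 529, 534 and 500.2 CPM with DMSO and at 235, 248, 247 and 252 CPM with PF-9363, 2.12-fold lower, with a log2 change of -1.08 (SE 0.058, adjusted p = 4.02e-16) by edgeR. Its partner chain Ifngr2 rose over the same libraries, from 46.8 to 165 CPM, with a log2 change of 1.82 (SE 0.067, adjusted p = 9.07e-20) by edgeR. With SETBP1-D868N against luciferase, Ifngr2 had fallen with Ifngr1, from 124 to 105 CPM with a log2 change of -0.23 (SE 0.032, adjusted p = 8.00e-05) by edgeR. Epor held 4, 4, 4 and 7 counts with DMSO and 2, 3, 4 and 4 with PF-9363, or 0.397, 0.399, 0.375 and 0.635 CPM and 0.206, 0.387, 0.623 and 0.434 CPM. These overlap, and they lie below the filter on low counts. Erythroid markers summed to between 565 and 614 CPM with DMSO and between 472 and 557 CPM with PF-9363, with Hbb-bs at 0 with DMSO and Slc4a1 at 0 with PF-9363. Of the 3 tested, Gata1, which mast cells also express, was higher (1.74), Tfrc, which makes up most of the sum, was lower (-0.25), and Klf1 did not pass (-0.81).

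**Figure D3:**
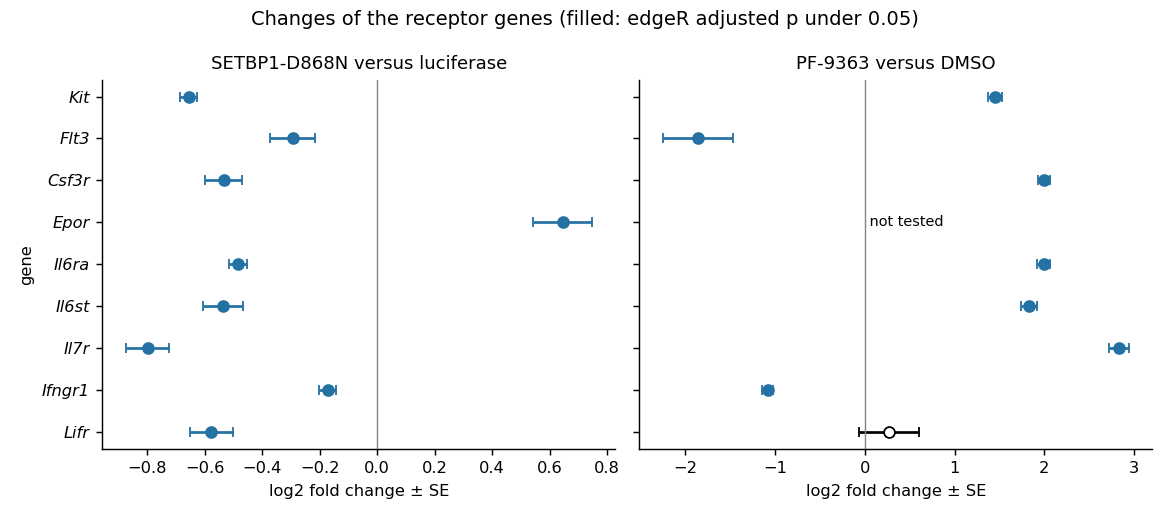
Log2 fold change of each receptor in both comparisons, with bars of 1 SE; Epor was not tested with PF-9363. Changes in the first comparison lie between -0.80 and 0.65, those in the second between -1.86 and 2.83.

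**Figure D4:**
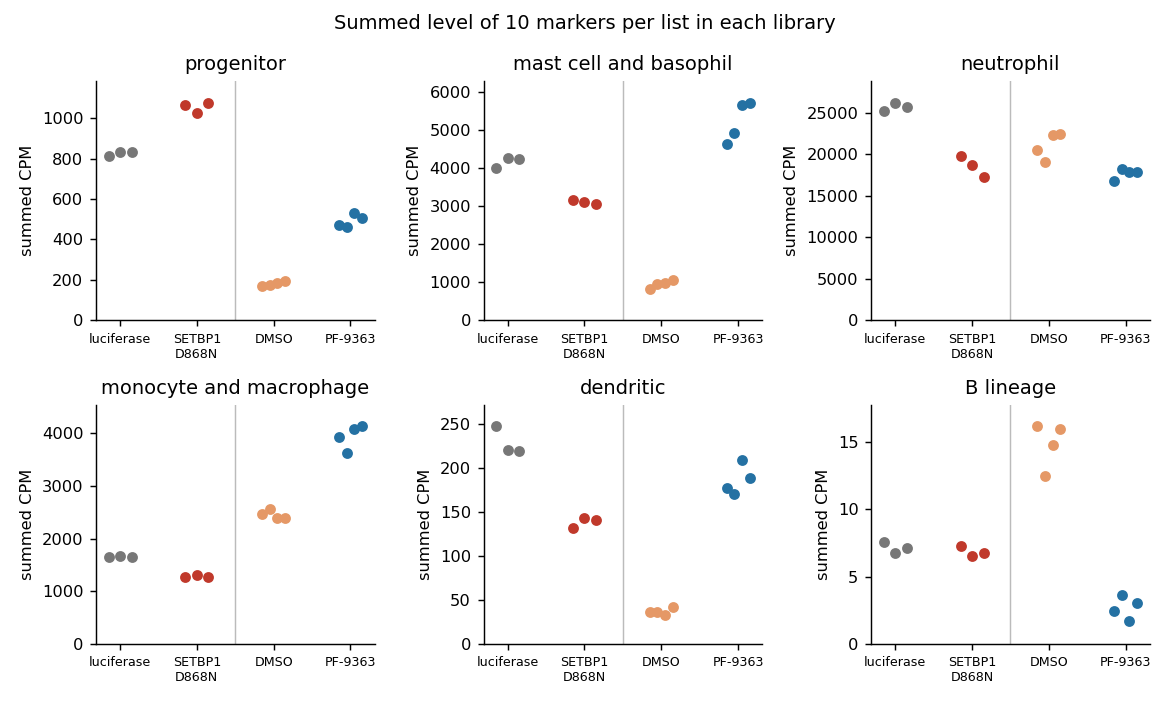
Summed CPM of the marker lists for several blood cell types in every library, in panels with axes from 0; points are libraries. The summed mast cell markers were between 4005 and 4275 CPM with luciferase and between 3045 and 3157 CPM with SETBP1-D868N, and between 821 and 1049 CPM with DMSO and between 4639.6 and 5723 CPM with PF-9363.

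Set side by side, the comparisons share no libraries, although each had SETBP1-D868N cells in it. The 8 receptors tested in both were all lower with SETBP1-D868N, and 5 of them (62.5%) were then higher with PF-9363. Of the 3098 genes lower with SETBP1-D868N and tested in both, 67.3% were higher with PF-9363 and 17.6% lower, so the receptors' share is near that of all genes. Flt3 and Ifngr1 were the receptors lower in both (25% of the 8), and Lifr was lower in the first only by its call, the difference between the comparisons not being tested.

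The ligands come first among the other genes of these pathways. Of the 14 ligand genes listed, 10 were tested in the first experiment; 3 were lower and 1 higher with SETBP1-D868N, with a median log2 fold change of -0.10. Lif, the ligand of Lifr and Il6st, had the largest fall, from 71.0 ± 2.70 to 26.1 ± 0.584 CPM (SD, n = 3), with a log2 change of -1.44 (SE 0.038, adjusted p = 2.41e-10) by edgeR. Il6 fell from 55.3 to 40.1 CPM (-0.46) and Osm, a cytokine of the same family, from 97.0 to 89.1 CPM (-0.12, adjusted p = 0.0114 by edgeR). The 1 called higher was Kitl, the gene of SCF, at under 1 CPM (0.74, adjusted p = 0.0219 by edgeR). The calls of Osm and Kitl were each lost on leaving out 1 library: Osm without luciferase 2 (-0.10, adjusted p = 0.0642 by edgeR), Kitl without luciferase 3 (0.59, adjusted p = 0.0857) or SETBP1-D868N 2 (0.50, adjusted p = 0.114). With PF-9363, all 4 ligands tested were higher: Il6 from 12.8 to 47.9 CPM (1.89), Lif from 16.8 to 54.5 CPM (1.70), Osm from 44.2 to 126 CPM (1.51) and Flt3l from 2.54 to 5.74 CPM (1.18), while Flt3 itself was lower. That count depends on the filter: with every gene of at least 1 count, 12 ligands were tested, of which 5 were higher and 3 lower, with a median of -0.16 against 1.60. Among those below the filter, Ctf1 held 2 to 10 counts with DMSO and 0 with PF-9363, and Tslp 3 to 16 and 0 to 2. Of the 5 partner chains tested, 2 were higher and 2 lower with SETBP1-D868N (median 0.035), and all 5 were higher with PF-9363 (median 1.58). Il27ra and Il11ra1, the chains that join Il6st to receive IL27 and IL11, were the 2 higher with SETBP1-D868N (0.31, adjusted p = 9.33e-04, and 0.22, adjusted p = 0.00374, by edgeR) and were also higher with PF-9363 (1.83 and 1.58). Il2rg, the common gamma chain that pairs with Il7r, had log2 fold changes of -0.14 and 1.55. Crlf2, which pairs with Il7r to bind TSLP, had 0.035, which did not pass, and 1.52.

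Kinases and transcription factors of the JAK and STAT families, which carry the signal of the cytokine receptors, were all lower with SETBP1-D868N (11 of 11, median -0.26, against 22.7% of all genes). On library totals alone, or with the replicate block, 10 were. Stat5a lost its call without luciferase 1 or 2 or SETBP1-D868N 1 or 2 (adjusted p from 0.0644 to 0.108 by edgeR). Jak2, the kinase bound by Epor and Ifngr2, had the largest change in the family, from 434 to 297 CPM, -0.55 (SE 0.032, adjusted p = 1.24e-07) by edgeR on the log2 scale, ahead of Stat4 (-0.43). With PF-9363, 7 were higher and 2 lower (7 and 4 on library totals alone; median 0.45, against -0.038 for all genes). Jak2 rose from 149 to 427 CPM (1.52), Jak1 to 485 CPM (1.04) and Stat6 by 0.66 on the log2 scale. Jak3, which binds the common gamma chain, fell from 59.6 to 17.9 CPM, -1.73 (SE 0.11, adjusted p = 1.44e-14) by edgeR, while Il7r and Il2rg rose, and Stat4 fell as well (-0.69).

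Of the 19 signalling adaptors and kinases that act below Kit, Flt3 and the cytokine receptors, 12 were lower and none higher with SETBP1-D868N (median -0.11; 8 lower and 1 higher on library totals alone). Leaving out 1 library gave between 8 and 12 lower, and Gab1, Grb2, Fes and Gab2 each lost the call in at least 1 such fit. Irs2 (-0.51), Plcg1 (-0.31) and Sos2 (-0.25) had the largest log2 falls. With PF-9363, 17 of 19 were higher and none lower (median 0.50; 13 higher and 1 lower on library totals alone), led by the SRC-family kinase Fyn (2.12) and the scaffolds Gab2 (1.49) and Gab1 (1.37). Of 17 genes listed as negative regulators, 11 were lower and none higher with SETBP1-D868N (median -0.18; 9 and 1 on library totals alone), and 13 were higher and 2 lower with PF-9363 (median 0.61; 10 and 3 on library totals alone). The phosphatase Ptprj changed most in both, by -0.65 and 2.08 on the log2 scale. Ptprc (CD45) changed by -0.41 and 1.02, Cblb, a ubiquitin ligase, by -0.37 with SETBP1-D868N, and Pias3 by 1.22 with PF-9363. The 2 lower with PF-9363 were the phosphatases Ptpn1 (-0.21) and Ptpn11 (-0.19), the latter known chiefly as a positive effector of RAS signalling and no longer called without PF-9363 4 (-0.13, adjusted p = 0.0714 by edgeR). Of the 5 genes for release of receptors from the cell surface, 2 were higher and 2 lower with SETBP1-D868N (2 and 1 on library totals alone, 1 and 2 with RLE size factors). Adam10 (0.074) and Adam17 (0.071), proteases that cut receptors such as Il6ra, were the 2 higher, by small amounts. DESeq2 called neither, Adam17 lost its call on leaving out any 1 library (0.062 to 0.074) and Adam10 without luciferase 2 or 3 or SETBP1-D868N 2 or 3 (0.061 to 0.075). Timp3 (-0.30), their inhibitor, and Rhbdf2 (-0.10) were the 2 lower. With PF-9363, 3 of 4 tested were higher (3 higher and 1 lower on library totals alone): Rhbdf2 (1.61), Timp3 (1.40) and Adam17 (0.59). Over these 6 lists, 41 of 67 tested genes were lower and 5 higher with SETBP1-D868N, and 49 of 60 higher and 4 lower with PF-9363. Of all genes tested, 22.7% were lower and 24.5% higher with SETBP1-D868N, and 36.6% higher and 39.4% lower with PF-9363. The pooled counts also depend on the scale, as the list counts on library totals alone show.

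**Figure D5:**
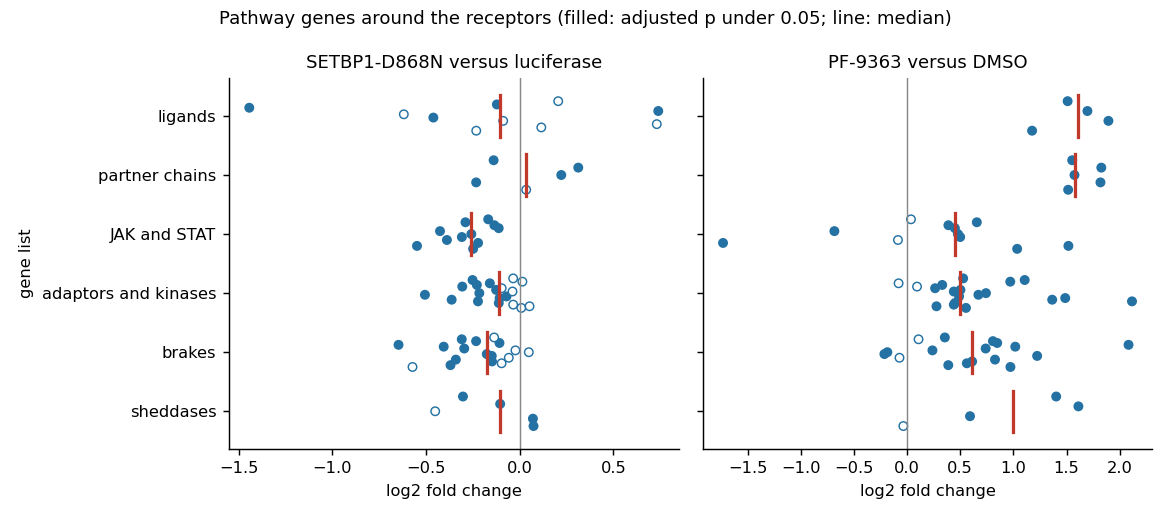
Log2 fold changes of single genes in the lists of receptor ligands, partner chains, JAK and STAT genes, adaptors, negative regulators and sheddases, for both comparisons; each point is 1 tested gene, filled where it passed the test, and lines are list medians. With SETBP1-D868N, 41 of 67 tested genes were lower, against 22.7% of all genes. With PF-9363, 49 of 60 were higher, against 36.6% of all genes.

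For each receptor tested in both experiments, the genes with the most similar pattern were found over all 14 libraries, as the Euclidean distance of log2 CPM centred within each experiment, among 10391 genes. Kit was nearest to Ccl24 (0.25) and Tyrobp (0.29), where the median distance of all genes from Kit was 2.38. Csf3r was nearest to Grina (0.29) and Mdfic (0.30), Il6ra to Shtn1 (0.29) and Skil (0.30), and Il6st to Anxa4 (0.29) and Il10ra (0.36). Il7r was nearest to Tmem106a (0.33) and Cd74 (0.46), and Ifngr1 to Srebf1 (0.17) and Usp33 (0.27). Flt3 (Arhgap33 at 0.84 and Ctdspl at 0.86) and Lifr (H2-K2 and Pcbp4, both at 0.81) had no gene as close; both had low counts in the second experiment. Distances here mix the size of the changes with the spread of replicates, and libraries share their depth. Changes with PF-9363 were larger and came from more libraries, so they weigh more in these distances. With SETBP1-D868N, Flt3 had a log2 fold change of -0.29, but Arhgap33 had 0.053 and Ctdspl -0.042. Lifr had -0.58, against -0.28 for H2-K2 and -0.16 for Pcbp4. The genes named for the other receptors had negative log2 fold changes there, as those receptors did. These genes were chosen by distance over the same libraries, so the shared sign follows in part from the choice.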

How the data were processed

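Polyadenylated RNA of 14 libraries was sequenced, from 500 ng of RNA with the Watchmaker kit (first experiment) or 100 ng with libraries made by Novogene (second), per the labels' protocols. Per the labels, the authors deposited 1 table of raw counts for each experiment, by gene symbol; the values are whole numbers, and 0 columns were unmapped. STAR, DESeq2 and the build GRCm38/mm10 are named in the submitters' processing notes without role or version; the counting program, annotation and strand setting are not given in the sources used here. If counting ignored strand, reads of overlapping antisense genes could enter a receptor's count.

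Everything else was computed here. Each experiment was fitted alone with edgeR 4.0.16 in R 4.3.3: filterByExpr (minimum count 10, minimum total 15), TMM, robust glmQLFit, glmQLFTest on group, and Benjamini-Hochberg adjustment over all genes tested (called under 0.05). SE is the absolute log2 fold change over the square root of F. The receptor ratio was compared by an exact permutation test over libraries. Levels between genes are CPM per kb of exon in GENCODE M21 (9 receptors matched). Alternatives were RLE size factors, library totals alone, other filters, DESeq2 1.42.0, voom of limma 3.58.1, no robust estimation, a replicate block and leaving out each library. The script was tested on simulated counts. The common biological variation was 4.93% and 8.18%.

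The text names all 9 receptors, up to 3 genes per direction, list and comparison with the largest change among called genes that average 5 CPM or more in either group, and the 2 nearest genes in pattern (prior count 2); 1 gene that this rule names is not reported here. Ifngr2, Il2rg and Jak2 are named as partners. Flt3l, Kitl, Crlf2, Ctf1, Tslp, Timp3 with PF-9363 and the marker genes given with values were picked after their values were seen. So were Stat5a, Grb2, Fes, and Gab1 and Gab2 with SETBP1-D868N. The receptors and lists were chosen with earlier results of these data known. Upstream sequences are RefSeq's (GRCm38.p6), with all 9 receptors matched; protein sequences were not used here.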

Additional observations from a re-analysis of the deposited data

Results flagged for a closer look

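Epor in DMSO library 4 stood at 0.635 CPM, apart from the other DMSO libraries at 0.375 to 0.399 CPM. The gap was 0.906 of the group's range, above Dixon's critical value. The values rest on 7 counts against 4 in each of the others. Of 20 groups of 4 libraries looked at, this was the only one flagged, and chance flags about 1 in 20.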

How the results depend on the processing

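The calls of the receptors did not depend on the settings tried: 1 higher and 8 lower with SETBP1-D868N, and 5 higher and 2 lower with PF-9363, under every alternative. All 126 and 128 alternative values of single receptors kept their direction and their side of the threshold. Flt3 with SETBP1-D868N came nearest to it (log2 fold change -0.36 to -0.20, highest adjusted p 0.0388 over its alternatives), and Lifr with PF-9363 ranged from 0.010 to 0.46. With every gene of at least 1 count, the PF-9363 ligands split as 5 higher and 3 lower, against 4 and 0. Pathway genes called ranged from 38 to 46 with SETBP1-D868N and from 51 to 57 with PF-9363. On library totals alone, which shift the median of all genes by 0.049 and -0.23, the log2 fold changes with PF-9363 were 1.22 for Kit, 2.60 for Il7r and -1.31 for Ifngr1, and Tyk2 went from 0.036 (not called) to -0.19; the shift of the scale accounts for this by construction. Leaving out 1 library moved the log2 Il6ra to Il6st ratio difference between 0.000622 and 0.105 with SETBP1-D868N and between 0.0663 and 0.256 with PF-9363. Without the filter, Epor with PF-9363 had a log2 fold change of -0.19 (SE 0.76, adjusted p = 0.852 by edgeR).

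Libraries that share a replicate number did not deviate together (correlations between -0.0968 and -0.0369 for SETBP1-D868N and luciferase, between -0.0402 and 0.00753 for PF-9363 and DMSO), so the numbers are not taken to pair them. With the replicate block, 1 receptor was higher and 8 lower with SETBP1-D868N, and 5 higher and 2 lower with PF-9363; 40 and 53 pathway genes were called, and 3416 higher and 3224 lower of all genes with SETBP1-D868N. Depth limits Epor, Lifr and Flt3 in the second experiment, which rest on 2 to 39 counts per library.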

Other observations

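Other growth factor receptors gave values beside these 9. Csf1r, the M-CSF receptor of macrophages, fell with SETBP1-D868N from 255 to 169 CPM (log2 fold change -0.60, adjusted p = 4.83e-08 by edgeR) and rose with PF-9363 from 62.1 to 424 CPM (2.77, adjusted p = 1.47e-23 by edgeR). Igf1r, the receptor of insulin-like growth factor, moved the other way, rising from 101 to 127 CPM (0.34) and falling from 135 to 69.4 CPM (-0.96). These genes were picked after their values were seen.

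SETBP1-D868N cells of the first experiment and DMSO cells of the second carry the same mutant but differ in RNA input, library preparation and depth. The DMSO cells also had 4 days with solvent, and no treatment is given for the first experiment. These groups were not compared by a test. In CPM per kb, Ifngr1 stood at 84.6 in the SETBP1-D868N group and 183 in the DMSO group, Epor at 2.39 and 0.227, and Flt3 at 1.78 and 0.431.

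Among the PF-9363 libraries, 3 and 4 stood above 1 and 2 for Kit, Csf3r, Il6st and Il7r, but not for Il6ra. The summed mast cell markers were 4639.6, 4934, 5657 and 5723 CPM in PF-9363 libraries 1 to 4.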
